A study of Homo sapiens with 24 samples.

Results

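The p53 target genes described here are 33 genes, chosen by symbol from a list of genes that p53 is known to switch on, out of 52994 genes to which the deposited transcripts could be summed. CDKN1A and the BCL2 family, which also hold p53 targets, were not in the list. The levels come from RNA sequencing of UCSD-AML1 and ELF-153, human acute myeloid leukaemia cell lines kept in RPMI medium that held 20% serum and the cytokine GM-CSF (granulocyte-macrophage colony-stimulating factor) at 5 ng/ml. Cells of each line stayed untreated or received 100 nM decitabine (DAC), a cytidine analogue that traps DNA methyltransferases and lowers DNA methylation, renewed with the medium on 4 days in a row. RNA was taken at 96 h or 144 h, which gives 8 groups of 3 libraries (24 libraries in all): untreated and DAC-treated cells of each line at each harvest. The labels call the 3 libraries of a group technical triplicates, so that p-values measure only the spread between these libraries, and each line stands for itself alone.

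p53 is a transcription factor that is held at a low level by MDM2, a ubiquitin ligase, and by the related protein MDM4. DNA damage and other stresses free it, and it then binds pairs of a short DNA motif near its targets and raises their transcription. The targets include MDM2 itself, which closes a feedback loop, genes that stop the cell cycle, DNA repair genes, death receptors and genes of metabolism.

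The windows around the start sites of 4 members are shown because these members bear on the results below: GDF15, AEN and TRIAP1 hold a pair of p53 core letters, and BTG2, whose every DAC library was above every untreated library of the same line and harvest, holds none in its window. They come from RefSeq (GRCh38.p14), run 5′ to 3′ along the gene from 250 bases before to 50 bases after the annotated start, and carry the core pair in capitals.
GDF15: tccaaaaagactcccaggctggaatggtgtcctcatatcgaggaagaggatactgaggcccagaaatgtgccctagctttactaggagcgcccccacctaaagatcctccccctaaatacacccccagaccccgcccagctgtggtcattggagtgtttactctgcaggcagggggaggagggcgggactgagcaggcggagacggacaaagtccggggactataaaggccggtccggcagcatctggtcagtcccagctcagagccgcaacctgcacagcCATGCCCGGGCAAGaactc
AEN: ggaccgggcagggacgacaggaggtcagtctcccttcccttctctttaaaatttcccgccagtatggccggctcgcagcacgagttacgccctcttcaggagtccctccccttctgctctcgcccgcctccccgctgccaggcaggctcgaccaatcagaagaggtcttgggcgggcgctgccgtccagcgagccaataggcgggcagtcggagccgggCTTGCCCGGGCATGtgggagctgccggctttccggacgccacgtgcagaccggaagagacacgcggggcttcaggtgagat
TRIAP1: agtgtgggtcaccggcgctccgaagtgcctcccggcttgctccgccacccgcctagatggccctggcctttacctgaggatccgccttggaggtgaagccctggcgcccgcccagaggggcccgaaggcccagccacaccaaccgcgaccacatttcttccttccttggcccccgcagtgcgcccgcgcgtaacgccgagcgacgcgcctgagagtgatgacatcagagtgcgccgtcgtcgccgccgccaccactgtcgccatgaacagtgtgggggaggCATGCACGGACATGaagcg
BTG2: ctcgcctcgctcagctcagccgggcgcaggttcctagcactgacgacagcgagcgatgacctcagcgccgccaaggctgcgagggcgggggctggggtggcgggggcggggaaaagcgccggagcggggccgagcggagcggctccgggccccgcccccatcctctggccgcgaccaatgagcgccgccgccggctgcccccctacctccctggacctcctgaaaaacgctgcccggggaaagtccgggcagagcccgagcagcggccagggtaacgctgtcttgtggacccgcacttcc
The GDF15 window is chr19:18385908-18386207 on the plus strand, that of AEN chr15:88621090-88621389 on the plus strand, that of TRIAP1 chr12:120446335-120446634 on the minus strand and that of BTG2 chr1:203305269-203305568 on the plus strand. A core pair was any of CATG, CAAG or CTTG, followed by 6 bases and by any of the same 3 words, a set that reads the same on both strands. Other core words, other spacings and sites outside the windows were not searched. A member without a pair, such as BTG2, may therefore still have a p53 site. The pair was CATGCCCGGGCAAG in GDF15, CTTGCCCGGGCATG in AEN and CATGCACGGACATG in TRIAP1. In GDF15 and TRIAP1 it began at base 32 after the start, and in AEN 31 bases before it. RefSeq windows were found for 26 of the 33 members (41 windows of 300 bases). At least 1 window held a core pair for 7 of these 26 members (26.9%), against 4.02% of all symbols with a window, the other 4 being MDM4, SESN1, FAS and TP53I11. Among windows the share was 17.1%, against 3.27% of all 35116 windows. The member windows were also richer in CpG dinucleotides, with a median of 25 against 14. The 7 with a core pair did not move together after DAC. GDF15 rose in both lines, and MDM4 in ELF-153. TRIAP1 fell in UCSD-AML1 and, at 144 h, in ELF-153. TP53I11 fell in ELF-153, and AEN did so at 96 h only. SESN1 and FAS passed no test. Some of these calls were lost without 1 library or with other processing, as given below.

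Values are reads per gene, summed over its transcripts and divided by 1 size factor per library (scaled reads), with libraries numbered 1 to 3 in each group and listed in that order. Libraries held 13148881 to 28528757 reads. Reads seem to have been counted only where they fell on 1 transcript alone, so that the levels of different genes cannot be compared. Of the members, 7 had over 50% of their value on retained-intron or processed transcripts: CCNG1, GADD45B, PLK3, TNFRSF10B, AEN, CYFIP2 and FDXR. Of the 33 members, 29 passed the filter on low values (10 or more in at least 3 libraries). DDB2, a sensor of ultraviolet damage, was listed at 0 in all 24 libraries. POLH, a translesion polymerase, PERP, a membrane protein of epithelia, and SPATA18, which acts in mitochondrial quality control, did not pass the filter, with at most 8.40, 4.39 and 3.93 scaled reads in a library.

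Markers of the labelled cell type were present: PTPRC, CD34, KIT, CD33, SPI1 and GATA2 had reads in all groups, MPO was at or near 0, and MECOM was at a mean of 4002 in untreated UCSD-AML1 and 1.63 in untreated ELF-153 at 96 h. Of the markers of other cell types, each list had members at or near 0 and members with reads. Among B cell markers MS4A1 was at 0 throughout, while CD79A and PAX5 had means of 290.3 and 40.4 in untreated UCSD-AML1 and 138 and 492 in untreated ELF-153 at 96 h. The summed B cell level of a library was 306 to 351 in untreated and 163 to 191 in DAC-treated UCSD-AML1 at 96 h, and 532 to 759.5 and 434 to 518 in ELF-153. Among epithelial markers EPCAM was at 0 and KRT19 and CDH1 at a mean of at most 1.30, while KRT8 in UCSD-AML1 had means of 63.6 untreated and 164 DAC-treated at 96 h. Among fibroblast markers DCN was at a mean of at most 0.356, while COL1A1 and PDGFRB had reads: at 96 h COL1A1 had means of 2.75 in untreated and 29.3 in DAC-treated UCSD-AML1, and PDGFRB 358 and 156, and 243 and 187 in ELF-153.

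The 4 T cell markers had a higher summed level after DAC. In a library it was 41.0 to 49.3 in untreated and 663 to 1015 in DAC-treated UCSD-AML1 at 96 h, and 147 to 160.4 and 389.8 to 449 in ELF-153. At 144 h it was 51.3 to 67.2 and 620.4 to 724, and 153 to 187 and 405 to 550.1. In UCSD-AML1 CD2 made up nearly all of the rise. In ELF-153 CD2 and CD3G made up most of it, with CD3D at means of 139.7 untreated and 195 treated at 96 h. CD3E stayed at a mean of at most 3.32 in both lines. The part of these markers in the members' changes was not tested. The share of mitochondrial ribosomal RNA in a library ran from 13.1% to 63.8% and differed between groups, as described with the members it touches. In bulk RNA, fewer cells of a kind and less RNA per cell cannot be told apart.

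In untreated cells most p53 targets were lower in ELF-153 than in UCSD-AML1. Of the 29 members tested, 18 were lower and 2 higher in ELF-153 at 96 h (limma with Benjamini-Hochberg adjustment over all 17609 genes, adjusted p below 0.05), where 35.2% of all genes were lower and 22.7% higher. At 144 h, 16 were lower and 3 higher, against 23.1% and 28.7% of 17180 genes. The median difference over the members was -1.26 on the log2 scale at 96 h and -0.80 at 144 h, against -0.23 and 0.08 over all genes. All differences and changes below are on the scale of log2(scaled reads + 1), with the standard error after ±, and understate those of low genes. With TMM scaling factors the median of all genes moved by 0.25 at 96 h, 5135 of all genes were higher and 5091 lower instead of 4003 and 6192, and of the members again 18 were lower and 2 higher. With the share of mitochondrial ribosomal RNA as a covariate, fewer of the 29 were lower: 10, with 0 higher, at 96 h. At 144 h 11 were then lower and 2 higher.

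**Figure D1:**
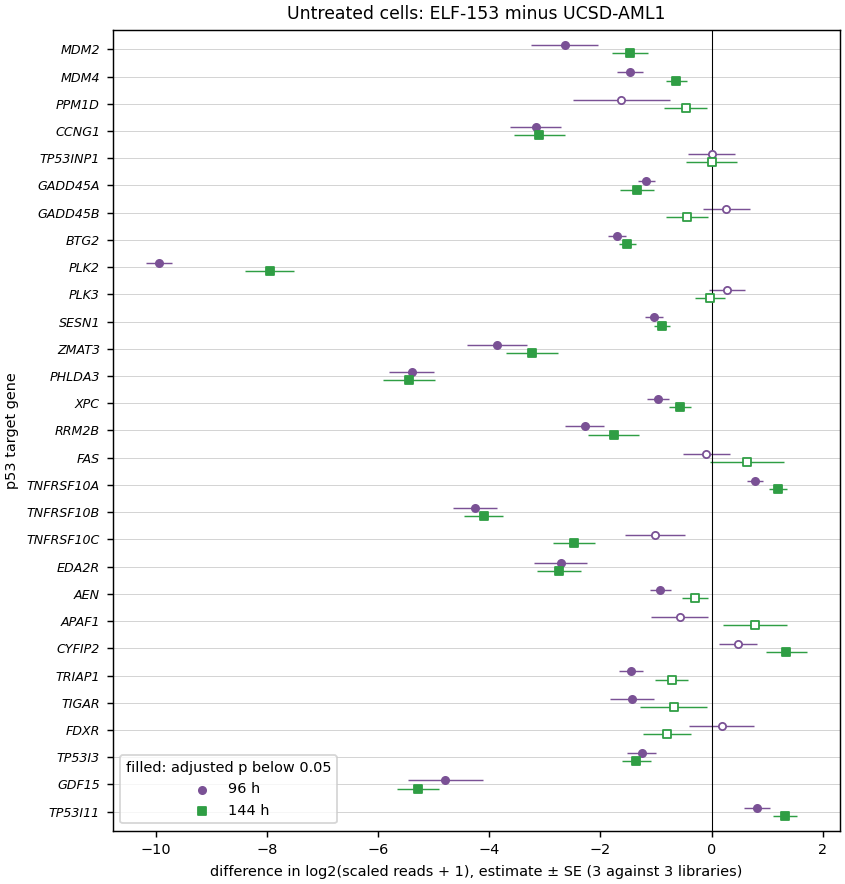
The difference between untreated ELF-153 and untreated UCSD-AML1 (x axis, difference in log2(scaled reads + 1), estimate ± SE, 3 against 3 libraries) for each of the 29 members tested, at 96 h (circles) and 144 h (squares); filled symbols have an adjusted p below 0.05. Most symbols lie left of 0, PLK2 farthest, and TNFRSF10A and TP53I11 lie right of it at both harvests.

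MDM2, the best known p53 target, had 83.9, 54.1 and 89.1 scaled reads in untreated UCSD-AML1 at 96 h and 2.24, 26.6 and 18.2 in untreated ELF-153. The groups did not overlap, and the difference was -2.64 ± 0.60 (adjusted p = 0.00183). With the share of mitochondrial ribosomal RNA as a covariate it lost its call and turned to 0.31 (adjusted p = 0.789). It rested in part on ELF-153 untreated library 1, without which it was -1.70. At 144 h the untreated values were 46.0, 56.6 and 38.2 in UCSD-AML1 and 16.7, 13 and 19.2 in ELF-153, with no overlap and a difference of -1.47 ± 0.32 (adjusted p = 0.00219), which was -1.21 (adjusted p = 0.0768) with that covariate.

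The 3 largest differences at both harvests were those of PLK2, PHLDA3 and GDF15. PLK2, a polo-like kinase of stressed cells, had 967, 1015 and 975 scaled reads in untreated UCSD-AML1 at 96 h and 0 in every untreated ELF-153 library. With 3 reads over the group as the floor, it was at least 967.5-fold lower in ELF-153. At 144 h it had 635, 608 and 371 and 3.63, 0 and 1.07, a difference of -7.95 ± 0.44 (adjusted p = 1.41e-08). The same order held for PHLDA3, which blocks AKT at the membrane: 99.6, 101 and 87.5 against 1.12, 1.02 and 1.82 at 96 h, a difference of -5.40 ± 0.40 (adjusted p = 8.50e-08). Its 144 h values were 92.0, 77.7 and 134 against 0.726, 1.18 and 2.14, with -5.45 ± 0.47 (adjusted p = 7.76e-07). GDF15, a secreted stress cytokine, was close to absent from untreated ELF-153. It had 34.6, 46.7 and 53.6 scaled reads in UCSD-AML1 and 3.36, 0 and 0 in ELF-153 at 96 h, and with 3 reads in all in the latter it was lower by 40.2-fold (95% counting interval 15.3 to 224). At 144 h the values were 79.6, 55.6 and 64.4 and 1.45, 0 and 1.07, and it was lower by 79.2-fold (95% counting interval 23.1 to 336); counting intervals here and below cover counting error only.

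The other members lower in ELF-153 at both harvests were MDM4 (-1.46 at 96 h and -0.64 at 144 h), CCNG1 (-3.16 and -3.10), GADD45A (-1.17 and -1.35), BTG2 (-1.71 and -1.51), SESN1 (-1.04 and -0.89), ZMAT3 (-3.86 and -3.23), XPC (-0.96 and -0.57), RRM2B (-2.29 and -1.77), TNFRSF10B (-4.26 and -4.10) and TP53I3 (-1.26 and -1.36). EDA2R, a receptor for ectodysplasin A2, had no read in any ELF-153 library and was at least 6.175-fold lower there at 96 h and 5.984-fold at 144 h. At 1 harvest only, AEN (-0.92), TRIAP1 (-1.45) and TIGAR (-1.44) were lower at 96 h and TNFRSF10C (-2.48) at 144 h, where TRIAP1 passed in edgeR, at -0.69 (adjusted p = 0.0468), and DESeq2, at -0.75 (adjusted p = 0.0282); the difference between harvests was not tested, since the tables were scaled separately. Higher in ELF-153 were the death receptor TNFRSF10A (0.78 and 1.2), the endoplasmic reticulum protein TP53I11 (0.82 and 1.32) and, at 144 h, CYFIP2 (1.34). Summed without retained-intron and processed transcripts, AEN at 96 h turned to 0.32 (adjusted p = 0.591). At 144 h the MDM4 call was lost without UCSD-AML1 untreated libraries 1 or 2 (log2 -0.57 to -0.54, adjusted p 0.0547 to 0.0604), and the XPC call without UCSD-AML1 untreated libraries 1, 2 or 3 or ELF-153 untreated library 2 (log2 -0.61 to -0.46, adjusted p 0.0554 to 0.117).

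After DAC more members rose than fell in both lines and at both harvests. In UCSD-AML1, 13 of 29 rose and 2 fell at 96 h, against 20% of all genes that rose and 20.1% that fell. At 144 h, 8 rose and 3 fell in this line, against 20.1% and 26.8%. In ELF-153, 12 rose and 2 fell at 96 h, against 20.7% and 12.9%, and 16 rose and 3 fell at 144 h, against 20.8% and 18.2%. TP53INP1 and EDA2R passed the filter through the DAC-treated UCSD-AML1 libraries alone, where they are high, so that they could only be tested by rising there. Without these 2, 11 of 27 rose at 96 h and 6 at 144 h in UCSD-AML1, and 11 and 15 in ELF-153. The 6 of 27 in UCSD-AML1 at 144 h lie near the 20.1% of all genes that rose there. The counts by role below stand against the all-gene shares given here. The members' median change was 0.56 and 0.24 in UCSD-AML1 and 0.76 and 0.95 in ELF-153 at 96 h and 144 h. Over all genes the medians were -0.03, -0.14, 0.17 and 0.11 in the same order.

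These counts leaned on the processing in UCSD-AML1. With TMM factors the all-gene median shifted by 0.13 at 96 h and 0.26 at 144 h in this line. The genes that rose and fell were then 4105 and 2868 at 96 h instead of 3513 and 3545, and 4551 and 3410 at 144 h instead of 3450 and 4609. Of the members 13 rose and 2 fell at 96 h, and 12 rose and 2 fell at 144 h. At 96 h, leaving out any 1 library lowered the UCSD-AML1 count of called members from 15 to between 8 and 11. The lowest counts were 8 without DAC library 1, 8 without DAC library 2, 9 without DAC library 3 and 9 without untreated library 3. At 144 h the count of 11 was 7 without DAC library 2. At both harvests TP53INP1 and EDA2R missed the filter once any DAC library of this line was left out. They then dropped from the count untested. At 144 h, libraries 3 of both UCSD-AML1 groups had the lowest mitochondrial share, and without both, 5 of the 27 members then tested rose and 3 fell.

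**Figure D2:**
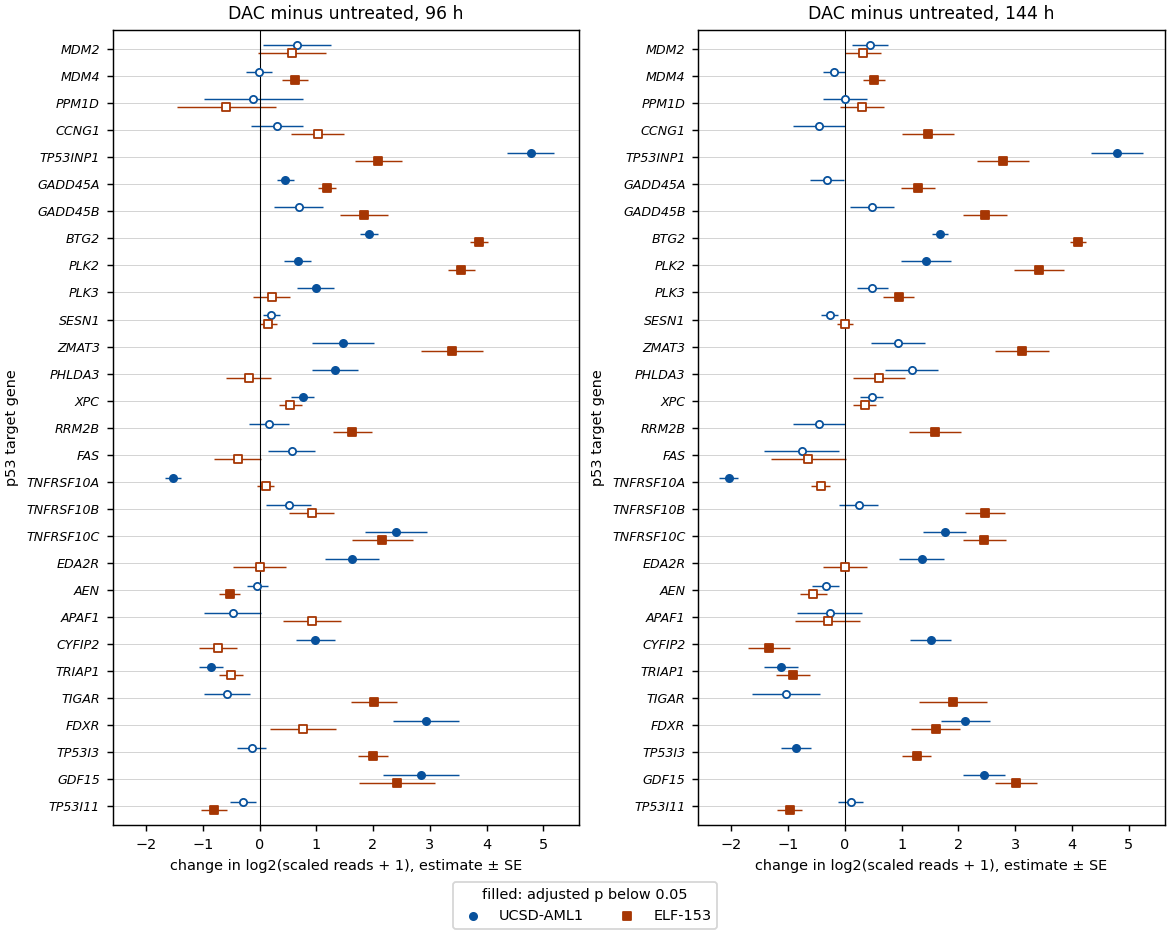
The change after DAC (x axis, change in log2(scaled reads + 1), estimate ± SE, 3 against 3 libraries) of each of the 29 members tested, at 96 h (left) and 144 h (right), in UCSD-AML1 (circles) and ELF-153 (squares); filled symbols have an adjusted p below 0.05. BTG2, TP53INP1, PLK2, TNFRSF10C and GDF15 are filled and right of 0 in all 4 comparisons, and TNFRSF10A is left of 0 with filled symbols in UCSD-AML1.

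Across the 4 comparisons of DAC with untreated cells, 5 members were called in all 4, namely TP53INP1, BTG2, PLK2, TNFRSF10C and GDF15, and all of them rose each time. Of the 16783 genes tested at both harvests, 12.3% were called in all 4 and 6.34% rose each time. A further 6 members were called in 3, 8 in 2 and 5 in 1, against 11.6%, 26.9% and 23% of all genes. The UCSD-AML1 calls of TP53INP1 are set by the filter, as said above. MDM2, PPM1D, SESN1, FAS and APAF1 were called in none, as were 26.2% of all genes.

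Of the 5 feedback genes, TP53INP1 rose in all 4 comparisons and MDM2 and PPM1D passed no test. MDM2 had 112, 100.0 and 144 scaled reads in DAC-treated UCSD-AML1 at 96 h and 69.7, 70.0 and 51.8 at 144 h, against the untreated values given above. In DAC-treated ELF-153 it had 12.3, 15.7 and 24.5 at 96 h and 32.0, 18.4 and 14.3 at 144 h. The treated libraries lay above the untreated ones in UCSD-AML1 at 96 h only, and elsewhere the groups overlapped. None of its changes passed the test: 0.66 (adjusted p = 0.407) and 0.44 (adjusted p = 0.281) in UCSD-AML1, and 0.57 (adjusted p = 0.49) and 0.32 (adjusted p = 0.466) in ELF-153. In a fit of the 6 UCSD-AML1 libraries alone the change at 96 h had an adjusted p of 0.0335.

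TP53INP1, which promotes p53-dependent cell death, had no read in any of the 12 untreated libraries. After DAC it had 21.6, 33.7 and 25.3 scaled reads in UCSD-AML1 at 96 h and 28.6, 15.7 and 42.8 at 144 h, and 4.74, 1.74 and 3.91 and 9.14, 6.42 and 3.29 in ELF-153. Every DAC library held reads, and those of UCSD-AML1 lay above those of ELF-153. It was at least 29.28-fold and 28.69-fold higher in DAC-treated UCSD-AML1 at 96 h and 144 h, and at least 3.401-fold and 6.332-fold higher in ELF-153, each with 3 reads over the untreated group as the floor. It passed the filter only through the DAC-treated UCSD-AML1 libraries, so that its rise there is a description. In ELF-153 limma gave adjusted p of 0.00163 and 3.58e-04. MDM4 passed the test in ELF-153, where it rose by 0.63 ± 0.23 (adjusted p = 0.0492) at 96 h and 0.52 ± 0.19 (adjusted p = 0.0473) at 144 h. At 96 h the call was lost without untreated libraries 1 or 3 or DAC libraries 2 or 3 (log2 0.37 to 0.75, adjusted p 0.0517 to 0.22), and at 144 h without untreated libraries 2 or 3 or DAC libraries 1 or 2 (log2 0.36 to 0.55, adjusted p 0.0803 to 0.201). In edgeR the 96 h change of MDM4 was 0.61 (adjusted p = 0.0527). CCNG1, whose product cyclin G1 acts on MDM2, rose in ELF-153 at 144 h by 1.46 ± 0.47 (adjusted p = 0.0242), a call lost without untreated libraries 2 or 3 or DAC libraries 2 or 3 (log2 1.22 to 1.46, adjusted p 0.0571 to 0.0984). PPM1D, a phosphatase that turns the p53 response off, had at most 26.2 scaled reads in any library, and its changes ranged from -0.58 to 0.31.

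**Figure D3:**
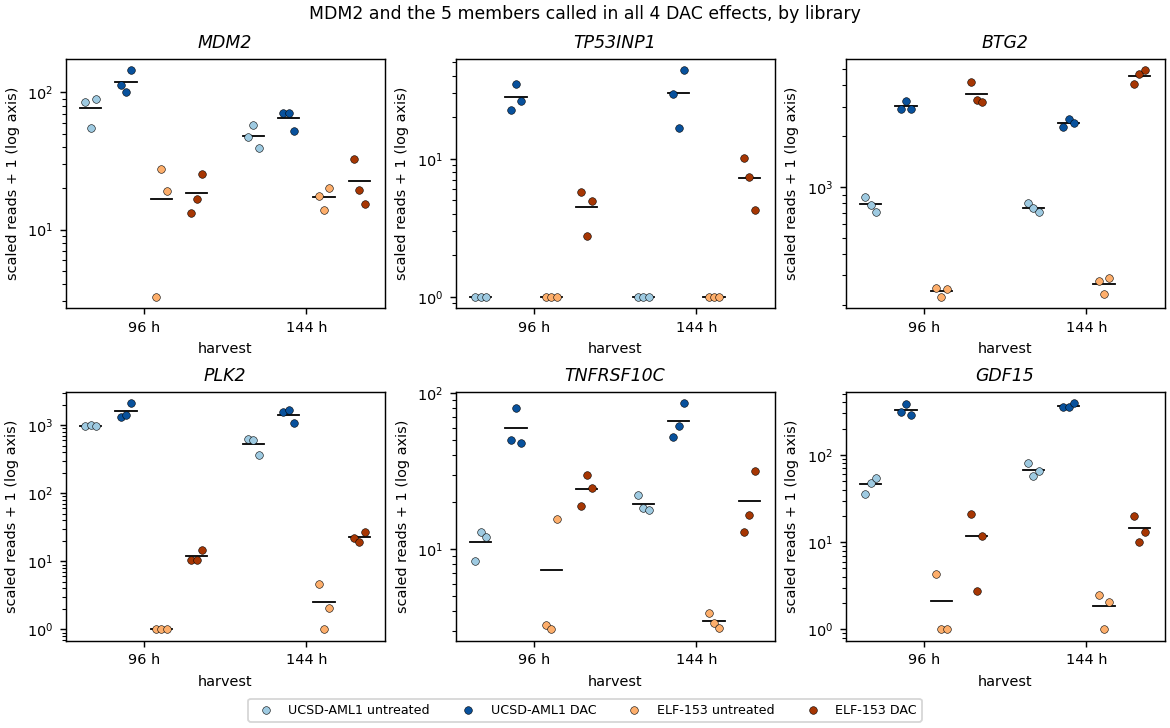
Scaled reads + 1 (log axis) of MDM2, TP53INP1, BTG2, PLK2, TNFRSF10C and GDF15 in each library (points), by harvest, line and treatment; the short lines are group means. TP53INP1 sits at the floor of 1 in all untreated libraries, BTG2 is higher in DAC libraries in every group pair, and PLK2 is near the floor in untreated ELF-153 but at 371 or more in every UCSD-AML1 library.

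Among the 8 growth arrest and stress genes, 6 rose at 96 h and 2 at 144 h in UCSD-AML1, and 5 and 6 in ELF-153, and none fell. Of all genes, 20%, 20.1%, 20.7% and 20.8% rose in that order, so that 2 of 8 lies near the share of all genes. BTG2, an antiproliferative protein that recruits the deadenylase of messenger RNAs, had the smallest adjusted p of all members in ELF-153. Its untreated ELF-153 values were 251, 222 and 247 at 96 h and 274, 232 and 286 at 144 h, and its DAC values 4216, 3284 and 3179.8 and 4071, 4684 and 4909. That is a change of 3.88 ± 0.16 (adjusted p = 6.58e-10) at 96 h and 4.10 ± 0.14 (adjusted p = 5.92e-10) at 144 h. UCSD-AML1 began higher, at 869, 785 and 707 and 805, 745 and 713, and reached 2899.7, 3227 and 2879.8 and 2279, 2533 and 2405. The changes there were 1.93 ± 0.16 (adjusted p = 7.01e-07) and 1.67 ± 0.14 (adjusted p = 2.25e-06). Treated and untreated groups were far apart each time, and after DAC the order of the lines was turned round: every DAC-treated ELF-153 library lay above every DAC-treated UCSD-AML1 library at 144 h.

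PLK2 rose from its very different starting levels in both lines. In UCSD-AML1 it reached 1314, 1398 and 2122 at 96 h, a change of 0.68 ± 0.24 (adjusted p = 0.0344), and 1551, 1665 and 1073 at 144 h, a change of 1.42 ± 0.44 (adjusted p = 0.0183). In ELF-153, where the 96 h untreated libraries held no read, DAC libraries had 9.47, 9.59 and 13.7, at least 10.72-fold higher (limma adjusted p = 7.89e-08). At 144 h they had 21.0, 18.4 and 26.4, a change of 3.42 ± 0.44 (adjusted p = 5.12e-05). The treated and untreated libraries did not overlap in any of these, but after DAC ELF-153 stayed far below untreated UCSD-AML1. The UCSD-AML1 call at 96 h was lost without untreated libraries 1, 2 or 3 or DAC libraries 2 or 3 (log2 0.46 to 0.76, adjusted p 0.054 to 0.174), and that at 144 h without untreated library 3 or DAC libraries 1 or 2 (log2 1.18 to 1.35, adjusted p 0.0545 to 0.0638). Without both UCSD-AML1 libraries numbered 3 at 144 h it was 1.37 (adjusted p = 0.0622).

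The stress sensors GADD45A and GADD45B rose in ELF-153 at both harvests, by 1.18 and 1.28 for GADD45A and by 1.85 and 2.46 for GADD45B (adjusted p from 5.72e-05 to 0.00438). In UCSD-AML1 GADD45A rose by 0.46 at 96 h and was at -0.32 (adjusted p = 0.402) at 144 h, while GADD45B passed no test there. ZMAT3, an RNA-binding regulator of splicing, rose in ELF-153 by 3.40 ± 0.55 (adjusted p = 3.07e-04) and 3.11 ± 0.47 (adjusted p = 2.40e-04), and in UCSD-AML1 by 1.46 ± 0.55 (adjusted p = 0.0462) at 96 h, a call that turned to -0.14 (adjusted p = 0.678) with the mitochondrial covariate. In UCSD-AML1 at 144 h ZMAT3 was at 0.93 (adjusted p = 0.125) and passed on recovered reads in edgeR, at 1.28 (adjusted p = 0.0253), in DESeq2, at 1.2 (adjusted p = 0.0123), and with TMM factors, at 1.23 (adjusted p = 0.0329). PLK3, a second polo-like kinase, rose in UCSD-AML1 at 96 h by 0.99 ± 0.33 (adjusted p = 0.0268) and in ELF-153 at 144 h by 0.95 ± 0.27 (adjusted p = 0.0144). In UCSD-AML1 at 144 h it was at 0.48 (adjusted p = 0.165) and passed in edgeR, at 0.78 (adjusted p = 0.0471). SESN1, a sestrin that restrains growth signalling, ranged from -0.27 to 0.21 and passed no test. Among the UCSD-AML1 calls at 96 h, GADD45A was lost without untreated libraries 2 or 3 or DAC libraries 1, 2 or 3 (log2 0.41 to 0.49, adjusted p 0.0533 to 0.115), ZMAT3 without untreated libraries 1, 2 or 3 or DAC libraries 1 or 3 (log2 1.23 to 1.51, adjusted p 0.0971 to 0.141), and PLK3 without any 1 of the 6 libraries (adjusted p 0.0516 to 0.0754). In ELF-153 at 144 h, PLK3 was lost without DAC library 3 (log2 0.77, adjusted p 0.07).

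PHLDA3 moved in UCSD-AML1, where it had reads. DAC libraries held 237, 253 and 237 at 96 h and 213, 197 and 269 at 144 h, above all untreated ones. The change was 1.33 ± 0.40 (adjusted p = 0.0172) at 96 h and 1.18 ± 0.47 (adjusted p = 0.0526) at 144 h, where it missed the threshold. With the replicate number as a block in limma it passed at 144 h, at an adjusted p of 0.0234. Not every library there correlated best with that of its own number, so the block may not be a true pairing. The 144 h change also passed in edgeR, at 1.46 (adjusted p = 0.00224), and DESeq2, at 1.39 (adjusted p = 2.04e-04). At 96 h the call was lost without untreated library 3 or DAC libraries 1 or 2 (log2 1.26 to 1.34, adjusted p 0.0508 to 0.059). DAC-treated ELF-153 stayed at 0, 1.74 and 1.96 and 0.914, 1.84 and 6.59, which overlapped its untreated libraries.

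Of the repair and nucleotide genes, 2 could be tested. XPC, which recognises bulky DNA lesions, rose in UCSD-AML1 at 96 h, from 302 ± 14.4 to 512 ± 32.6 scaled reads (SD, n = 3), by 0.76 ± 0.20 (adjusted p = 0.0086). In UCSD-AML1 at 144 h it was at 0.47 (adjusted p = 0.0707), and it passed there in edgeR, at 0.78 (adjusted p = 0.00734), in DESeq2, at 0.72 (adjusted p = 0.00352), and with TMM factors, at 0.77 (adjusted p = 0.007). Its other changes were 0.54 (adjusted p = 0.0528) and 0.35 (adjusted p = 0.189) in ELF-153. RRM2B, the p53-inducible subunit of ribonucleotide reductase, rose in ELF-153 by 1.64 ± 0.35 (adjusted p = 0.00264) at 96 h and 1.58 ± 0.46 (adjusted p = 0.0162) at 144 h, and in UCSD-AML1 it was at 0.16 (adjusted p = 0.744) and -0.45 (adjusted p = 0.444). At 144 h the ELF-153 call was lost without untreated libraries 2 or 3 or DAC library 2 (log2 1.30 to 1.48, adjusted p 0.0542 to 0.0696).

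Of the 5 death receptor genes, 2 rose and 1 fell in UCSD-AML1 at each harvest, and in ELF-153 1 rose at 96 h and 2 at 144 h. TNFRSF10A and TNFRSF10B signal cell death on binding the ligand TRAIL, and TNFRSF10C is a decoy that binds TRAIL without a signal. TNFRSF10A had 377, 445 and 411 scaled reads in untreated and 145, 143 and 139 in DAC-treated UCSD-AML1 at 96 h, and 378, 349.9 and 364 and 85.7, 73.5 and 105 at 144 h. Every treated library lay below every untreated one, and the changes were -1.52 ± 0.15 (adjusted p = 3.05e-06) and -2.05 ± 0.16 (adjusted p = 1.19e-06). ELF-153 had 748, 656 and 718 untreated and 786, 731 and 765 treated at 96 h, and 797, 796 and 921 and 608, 631 and 627 at 144 h. The 144 h groups did not overlap, but neither change passed the limma test, at 0.11 ± 0.15 (adjusted p = 0.608) and -0.43 ± 0.16 (adjusted p = 0.0557). In DESeq2 on recovered reads the 144 h fall passed, at -0.43 (adjusted p = 0.041).

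TNFRSF10C rose in both lines. In UCSD-AML1 it went from 7.34, 11.9 and 11.0 to 49.2, 79.8 and 46.6 at 96 h and from 21.2, 17.3 and 16.7 to 51.3, 60.4 and 85.6 at 144 h. In ELF-153 it went from 2.24, 2.05 and 14.6 to 18, 28.8 and 23.5 and from 2.90, 2.37 and 2.14 to 11.9, 15.6 and 30.7. Treated libraries were above untreated ones in each of the 4 comparisons. The changes were 2.41 ± 0.54 (adjusted p = 0.00307) and 1.76 ± 0.38 (adjusted p = 0.00234) in UCSD-AML1, and 2.16 ± 0.54 (adjusted p = 0.00728) and 2.45 ± 0.38 (adjusted p = 2.22e-04) in ELF-153, and leaving out any 1 library ended none of these calls.

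TNFRSF10B rose in ELF-153 at 144 h, from 3.65 ± 2.00 to 24.1 ± 7.42 (SD, n = 3), by 2.47 ± 0.35 (adjusted p = 1.06e-04), and passed no other test after DAC. EDA2R had 7.34, 9.17 and 2.36 in untreated and 20.7, 13.5 and 26.2 in DAC-treated UCSD-AML1 at 96 h, and 4.42, 8.63 and 4.77 and 11.8, 21.0 and 16.9 at 144 h, and no read in any ELF-153 library. It passed the filter only through these DAC libraries, so that its rise there, of 1.63 and 1.35, is a description, and it is 1 of the 2 death receptor genes counted as risen in that line. FAS, the receptor of FAS ligand, ranged from -0.76 to 0.56 and passed no test, with overlapping groups in all 4 comparisons.

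Of the 4 apoptosis genes tested, 1 rose and 1 fell in UCSD-AML1 at each harvest, and in ELF-153 1 fell at 96 h and 2 at 144 h. TRIAP1, an intermembrane protein of mitochondria that protects from apoptosis, fell in UCSD-AML1 at both harvests, from 443 ± 9.94 to 247 ± 37.6 at 96 h and from 311 ± 76.3 to 140.2 ± 29 at 144 h (SD, n = 3). The changes were -0.85 ± 0.21 (adjusted p = 0.00568) and -1.13 ± 0.30 (adjusted p = 0.00746). In ELF-153 it fell at 144 h by 0.92 ± 0.30 (adjusted p = 0.0259), a call lost without untreated library 1 or DAC libraries 1 or 3 (log2 -0.88 to -0.57, adjusted p 0.0767 to 0.0854). At 96 h in ELF-153 TRIAP1 was not called by limma and passed in DESeq2, at -0.57 (adjusted p = 0.0325). AEN, an apoptosis-linked nuclease, fell in ELF-153 at 96 h, at -0.52 ± 0.19 (adjusted p = 0.0445), a call lost without untreated libraries 2 or 3 or DAC libraries 2 or 3 (log2 -0.56 to -0.37, adjusted p 0.0647 to 0.179). In limma the call was also lost with no filter (adjusted p = 0.114) and in a fit of the 6 ELF-153 libraries alone (adjusted p = 0.141). Summed without retained-intron and processed transcripts, 0 members were called lower in ELF-153 at 96 h, with 25 tested. APAF1, the scaffold of the apoptosome, ranged from -0.47 to 0.93 and passed no test.

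CYFIP2, a part of the actin-regulating WAVE complex, was called in opposite directions in the lines. UCSD-AML1 had 32.5, 29.3 and 45.7 untreated and 88.5, 69.7 and 57.3 treated at 96 h, and 14.1, 23.0 and 22.7 and 52.1, 52.5 and 68.7 at 144 h. It rose there by 0.99 ± 0.34 (adjusted p = 0.0316) and 1.51 ± 0.37 (adjusted p = 0.0048), with no overlap of the groups. ELF-153 had 34.7, 58.4 and 59.2 and 28.4, 45.4 and 19.6 at 96 h, which overlapped, and 37.0, 75.8 and 47.0 and 28.3, 11.9 and 22 at 144 h, which did not. The changes were -0.73 ± 0.34 (adjusted p = 0.111) and -1.34 ± 0.37 (adjusted p = 0.0111), so that it fell at 144 h. The 96 h call in UCSD-AML1 was lost without untreated libraries 1 or 2 or DAC libraries 1 or 2 (log2 0.83 to 1.00, adjusted p 0.0714 to 0.121), and the 144 h call in ELF-153 without untreated library 2 or DAC library 2 (log2 -1.05 to -1.0, adjusted p 0.0561 to 0.0576). Nearly all of its reads lay on retained-intron or processed transcripts (98.0% at 96 h and 98.6% at 144 h).

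Of the 3 metabolic genes tested, 2 rose at 96 h and 3 at 144 h in ELF-153, while in UCSD-AML1 1 rose at each harvest and 1 fell at 144 h. TP53I3, a quinone oxidoreductase, had 20.2, 15.4 and 22.8 in untreated and 96.6, 65.4 and 81.2 in DAC-treated ELF-153 at 96 h, and 22.5, 23.7 and 22.4 and 73.1, 56.9 and 42.8 at 144 h. It rose by 2.01 ± 0.26 (adjusted p = 5.44e-05) and 1.26 ± 0.26 (adjusted p = 0.00192). In UCSD-AML1 it had 50.3, 39.4 and 53.6 and 35.4, 45.0 and 49.5 at 96 h, which overlapped, and 61.0, 49.9 and 71.6 and 30.2, 29.7 and 38.3 at 144 h, where all treated libraries were lower. The changes were -0.14 ± 0.26 (adjusted p = 0.704) and -0.87 ± 0.26 (adjusted p = 0.016). The latter, a fall, was lost without untreated library 3 or DAC library 2 (log2 -0.80 to -0.74, adjusted p 0.0507 to 0.0515) and had an adjusted p of 0.115 with TMM factors, 0.113 in edgeR and 0.0887 in DESeq2.

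TIGAR, a bisphosphatase that slows glycolysis, rose in ELF-153 from 60.7 ± 7.74 to 299 ± 236 at 96 h (SD, n = 3), by 2.02 ± 0.40 (adjusted p = 0.00156), and by 1.91 ± 0.60 (adjusted p = 0.0241) at 144 h, a call lost without untreated libraries 2 or 3 or DAC library 2 (log2 1.33 to 1.78, adjusted p 0.0742 to 0.108). FDXR, which passes electrons to mitochondrial cytochromes, rose in UCSD-AML1 at both harvests, from 7.35 ± 5.93 to 54.7 ± 9.89 at 96 h and from 9.30 ± 0.588 to 44.7 ± 10.8 at 144 h. The changes were 2.94 ± 0.58 (adjusted p = 0.00124) and 2.12 ± 0.43 (adjusted p = 0.00157). In ELF-153 FDXR was at 0.76 (adjusted p = 0.334) at 96 h and rose by 1.60 (adjusted p = 0.0103) at 144 h.

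GDF15 rose in both lines, though ELF-153 stayed below the level of untreated UCSD-AML1. Its DAC values in UCSD-AML1 were 305, 384 and 287 at 96 h and 349.5, 352 and 392 at 144 h, all above the untreated ones, with changes of 2.84 ± 0.67 (adjusted p = 0.00424) and 2.45 ± 0.37 (adjusted p = 1.87e-04). In ELF-153 they were 19.9, 1.74 and 10.8 and 19.2, 9.18 and 12.1. At 96 h library 2 fell within the untreated range, and at 144 h the groups did not overlap. Against 3 reads in each untreated ELF-153 group, GDF15 was higher by 9.64-fold (95% counting interval 3.26 to 52.8) at 96 h and 16.1-fold (95% counting interval 4.40 to 69.5) at 144 h, with limma adjusted p of 0.013 and 3.20e-05. The 96 h call was lost without untreated library 3 or DAC libraries 1 or 3 (log2 1.80 to 2.21, adjusted p 0.0513 to 0.0609). TP53I11 fell in ELF-153, at -0.80 ± 0.23 (adjusted p = 0.0167) and -0.97 ± 0.22 (adjusted p = 0.00364), and passed no test in UCSD-AML1. Its 96 h call was lost without untreated library 1 or DAC library 3 (log2 -0.76 to -0.68, adjusted p 0.0512 to 0.0576). It was not called lower at 96 h either when retained-intron and processed transcripts were left out.

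The change after DAC differed between the lines for 9 members at 96 h and 14 at 144 h by the interaction term of the model, in which a positive value means a higher change in ELF-153. Of these, 7 were positive and 2 negative at 96 h, against 17.1% and 8.71% of all genes, and 11 and 3 at 144 h, against 19.9% and 10.1%. TP53INP1 and EDA2R passed the filter only through the DAC-treated UCSD-AML1 libraries, where they are high. Without them, 7 of 27 were positive and 1 negative at 96 h, and 11 and 2 at 144 h. TMM factors, under which the all-gene median shifted by -0.19 and -0.31, gave 2343 positive and 2048 negative genes at 96 h instead of 3011 and 1533, and 2614 and 2837 at 144 h instead of 3420 and 1741. Under them the members split 5 and 3 at 96 h, and 10 and 4 at 144 h. A pseudocount of 8 gave 6 and 6 at 96 h. The count of 9 was 5 without UCSD-AML1 DAC library 1. At both harvests TP53INP1 dropped out untested whenever a UCSD-AML1 DAC library was left out. The count of 14 was 7 without any 1 of UCSD-AML1 untreated library 1, ELF-153 untreated library 2 and ELF-153 DAC library 2, 8 without UCSD-AML1 untreated library 2 or ELF-153 untreated library 3, and 9 without UCSD-AML1 DAC library 3. The 9 members of the 96 h count were also called at 144 h with the same sign: TP53INP1, GADD45A, BTG2, PLK2, RRM2B, TNFRSF10A, CYFIP2, TIGAR and TP53I3.

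BTG2 rose by more in ELF-153, with a difference of 1.94 ± 0.22 (adjusted p = 7.21e-05) at 96 h and 2.43 ± 0.20 (adjusted p = 7.42e-06) at 144 h. TNFRSF10A, which fell in UCSD-AML1 and was not called by limma in ELF-153, gave 1.63 ± 0.21 (adjusted p = 1.48e-04) and 1.62 ± 0.23 (adjusted p = 4.49e-04). For TP53I3 the differences were 2.15 ± 0.37 (adjusted p = 0.00145) and 2.13 ± 0.37 (adjusted p = 0.00168). These 3 members kept their calls without any 1 of the 12 libraries of either table. CYFIP2 went the other way, at -1.72 ± 0.48 (adjusted p = 0.019) and -2.84 ± 0.52 (adjusted p = 0.00226), and its 96 h call was lost without UCSD-AML1 DAC library 1 (log2 -1.56, adjusted p 0.054). So did TP53INP1, at -2.69 (adjusted p = 0.00593) and -2.02 (adjusted p = 0.0337), with 0 in the untreated libraries of both lines. On recovered reads edgeR gave it an adjusted p of 1 at both harvests, and DESeq2 -3.31 (adjusted p = 0.191) at 96 h and -2.37 (adjusted p = 0.351) at 144 h. Since it passed the filter only through the DAC-treated UCSD-AML1 libraries, its differences are a description, and only 9 of the 12 leave-outs could be run; of these the 144 h call was lost without UCSD-AML1 untreated libraries 1 or 2, ELF-153 untreated libraries 2 or 3 or ELF-153 DAC libraries 2 or 3 (log2 -2.08 to -1.68, adjusted p 0.064 to 0.0834).

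The line differences of PLK2, GADD45A, RRM2B and TIGAR depended on single libraries at 1 or both harvests. PLK2, from 0 in untreated ELF-153 at 96 h, gave 2.88 (adjusted p = 7.48e-05) and 1.99 (adjusted p = 0.0312), the latter lost without UCSD-AML1 untreated libraries 1 or 2, UCSD-AML1 DAC library 3, ELF-153 untreated libraries 2 or 3 or ELF-153 DAC libraries 1, 2 or 3 (log2 1.45 to 2.11, adjusted p 0.0546 to 0.0754). GADD45A gave 0.73 (adjusted p = 0.0286) and 1.60 (adjusted p = 0.0157), the former lost without UCSD-AML1 untreated library 1, UCSD-AML1 DAC libraries 1 or 2 or ELF-153 DAC libraries 2 or 3 (log2 0.63 to 0.74, adjusted p 0.0516 to 0.0809). RRM2B gave 1.48 (adjusted p = 0.042), lost without UCSD-AML1 untreated libraries 1, 2 or 3, UCSD-AML1 DAC libraries 1 or 2, ELF-153 untreated libraries 1 or 3 or ELF-153 DAC library 2 (log2 1.06 to 1.60, adjusted p 0.0524 to 0.111), and 2.03 (adjusted p = 0.0346), lost without UCSD-AML1 untreated libraries 1 or 2, UCSD-AML1 DAC libraries 1 or 3, ELF-153 untreated libraries 2 or 3 or ELF-153 DAC libraries 1 or 2 (log2 1.71 to 2.07, adjusted p 0.0509 to 0.0873). TIGAR gave 2.59 (adjusted p = 0.00573) and 2.95 (adjusted p = 0.0234), the latter lost without UCSD-AML1 untreated libraries 1 or 2, ELF-153 untreated libraries 2 or 3 or ELF-153 DAC library 2 (log2 2.37 to 2.82, adjusted p 0.055 to 0.062). In edgeR on recovered reads GADD45A was at 0.53 (adjusted p = 0.119) and RRM2B at 1.27 (adjusted p = 0.0744) at 96 h, and DESeq2 gave GADD45A 0.53 (adjusted p = 0.0652). GDF15, whose change did not differ by this test at 144 h, at 0.57 (adjusted p = 0.423), turned to -1.07 (adjusted p = 0.0197) with a pseudocount of 8.

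**Figure D4:**
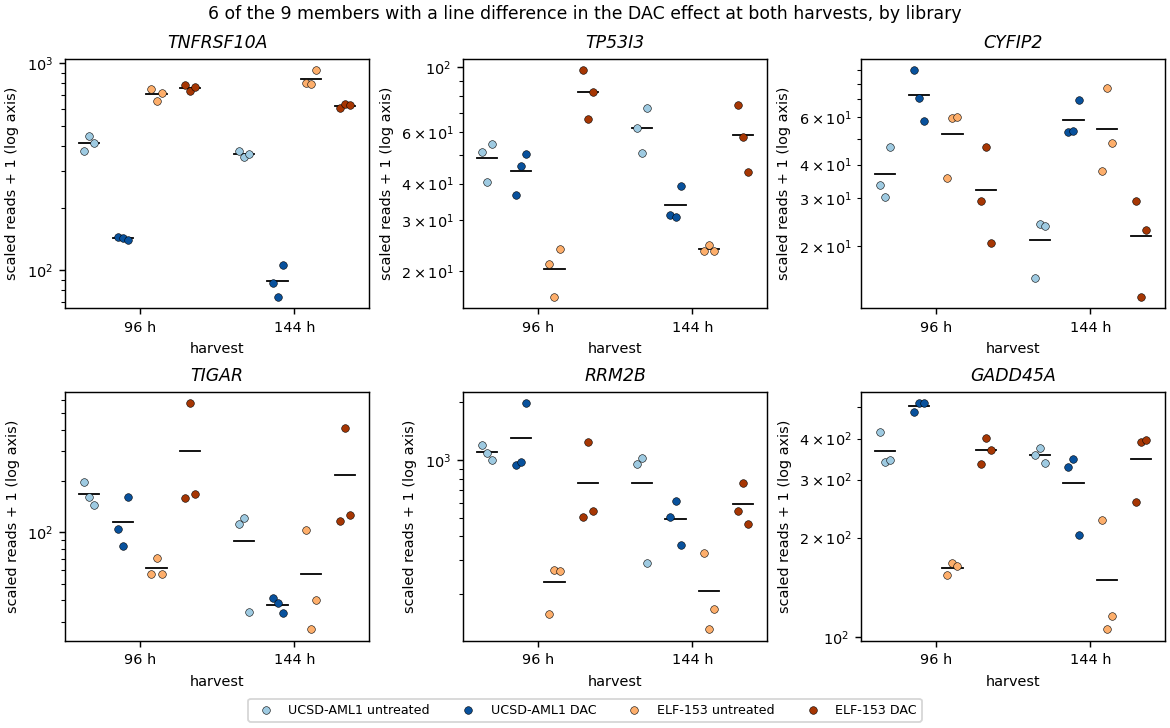
Scaled reads + 1 (log axis) of TNFRSF10A, TP53I3, CYFIP2, TIGAR, RRM2B and GADD45A in each library (points), by harvest, line and treatment; the short lines are group means. TNFRSF10A drops after DAC in UCSD-AML1 at both harvests, TP53I3 is higher after DAC in ELF-153, and CYFIP2 goes up in UCSD-AML1 and down in ELF-153 at 144 h.

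The level of some members moved with the share of mitochondrial ribosomal RNA in a library. That share was 50.1% ± 1.06 in untreated and 62.8% ± 1.05 in DAC-treated UCSD-AML1 at 96 h (SD, n = 3), and 25.2% ± 11.1 and 43.4% ± 6.25 in ELF-153. At 144 h it was 49.4% ± 4.25 and 51.2% ± 10.8 in UCSD-AML1, and 24.3% ± 12.1 and 47.0% ± 5.81 in ELF-153. Within groups of 3 libraries, ZMAT3 was lowest in the library with the lowest share in 7 of 8 groups and highest in that with the highest share in 6. For TIGAR both counts were 7 of 8, and for BTG2 they were 3 and 0.

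**Figure D5:**
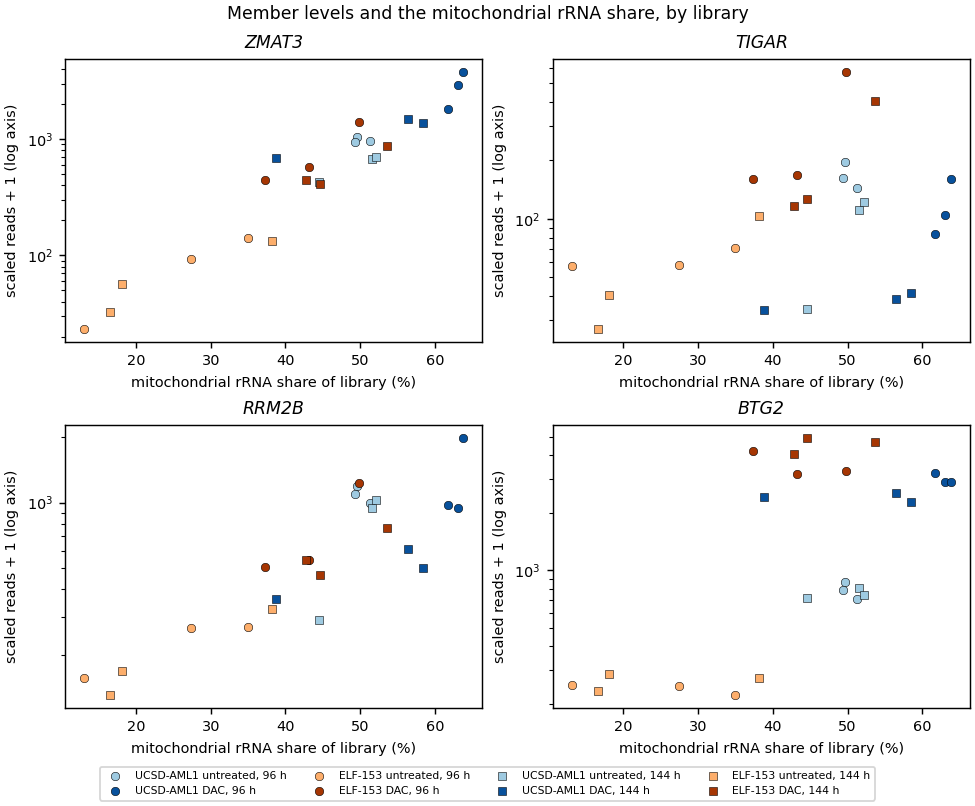
Scaled reads + 1 (log axis) of ZMAT3, TIGAR, RRM2B and BTG2 against the share of mitochondrial ribosomal RNA (%), 1 point per library, coloured by line and treatment, circles for 96 h and squares for 144 h, whose tables were scaled separately. Points of ZMAT3 rise with the share within most groups, and those of BTG2 are higher in the DAC groups of each line.

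With the share as a covariate in limma, 7 of the 15 calls in UCSD-AML1 at 96 h were lost (GADD45A, PLK2, ZMAT3, PHLDA3, XPC, EDA2R and CYFIP2, adjusted p 0.052 to 0.678) and 1 was gained, GADD45B. ZMAT3 in that comparison turned to -0.14 (adjusted p = 0.678). In ELF-153, 6 calls were lost at 96 h (MDM4, RRM2B, TNFRSF10C, AEN, TIGAR and TP53I11, adjusted p 0.166 to 0.81). There 4 were gained, PLK3 and APAF1 as rises and CYFIP2 and TRIAP1 as falls. At 144 h, 6 were lost in ELF-153 (MDM4, CCNG1, GADD45A, RRM2B, CYFIP2 and TIGAR, adjusted p 0.316 to 0.805). Of the 14 line differences at 144 h, 8 were lost (CCNG1, TP53INP1, GADD45A, PLK2, ZMAT3, RRM2B, TIGAR and TP53I11, adjusted p 0.092 to 0.424), while of the 96 h line differences no call was lost and 4 were gained (GADD45B, ZMAT3, PHLDA3 and APAF1). In untreated cells 11 of 20 were lost at 96 h (MDM2, MDM4, CCNG1, ZMAT3, XPC, RRM2B, TNFRSF10A, AEN, TRIAP1, TIGAR and TP53I11, adjusted p 0.0783 to 0.816) and 1 gained (APAF1), and 6 of 19 were lost at 144 h (MDM2, MDM4, GADD45A, XPC, RRM2B and CYFIP2, adjusted p 0.0768 to 0.628). At 96 h MDM2 turned to 0.31 (adjusted p = 0.789). In UCSD-AML1 at 144 h the covariate raised the count from 11 to 17, with 12 higher and 5 lower instead of 8 and 3. PLK3, ZMAT3, PHLDA3 and XPC were gained as rises, and GADD45A and TIGAR as falls. BTG2 and GDF15 kept their calls after DAC in all 4 comparisons. TP53INP1 did so as well, but its calls in UCSD-AML1 are set by the filter. The share also differs between the groups compared, and its part in the results was not tested further.

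Of 24 listed regulators of p53, 22 were tested, and 5 rose and 5 fell in UCSD-AML1 at 96 h, 7 and 4 at 144 h, 3 and 6 in ELF-153 at 96 h, and 6 and 5 at 144 h. The shares of all genes that rose and fell were 20% and 20.1%, 20.1% and 26.8%, 20.7% and 12.9%, and 20.8% and 18.2% in that order. CDKN2A, whose ARF product inhibits MDM2, rose in all 4 comparisons, by 0.92 and 1.30 in UCSD-AML1 and 0.93 and 0.79 in ELF-153. It was 18.9, 33.0 and 22.9 in untreated UCSD-AML1 and 259.9, 228 and 251 in untreated ELF-153 at 96 h. HIPK2, a kinase that phosphorylates p53, rose in UCSD-AML1 by 1.83 and 2.15 and in ELF-153 at 144 h by 1.2. The acetyltransferase EP300 rose in the same comparisons, by 1.18, 1.47 and 0.59. TRIM24, a ubiquitin ligase of p53, rose in ELF-153 by 0.81 and 0.76.

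CHEK1, the checkpoint kinase of the S phase, fell in all 4, at -3.66 and -3.51 in UCSD-AML1 and -1.35 and -1.37 in ELF-153. RPL5 and RPL11, ribosomal proteins that bind MDM2, and whose many processed pseudogenes can share their reads, also fell: RPL5 in all 4 comparisons (-0.53, -0.97, -0.66 and -1.14 in the same order), and RPL11 in all but UCSD-AML1 at 96 h, where it was at -0.53 (adjusted p = 0.0748). PPP1R13B, a cofactor of p53 at death genes, fell in all 4, with changes from -1.19 to -1.74. Proliferation markers moved beside the members: all 5 listed fell in UCSD-AML1 at both harvests, and MKI67 and CCNA2 in ELF-153, and their part in the members' changes was not tested.

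A second list holds 24 reported p53 targets, of which 20 were tested. In UCSD-AML1, 7 rose and 1 fell at 96 h, and 5 and 3 at 144 h, while in ELF-153 6 and 1, and 8 and 1, did so. The all-gene shares are those just given, and the 5 of 20 that rose in UCSD-AML1 at 144 h lie near that of 20.1%. ABHD4, a lipase, rose in all 4 comparisons, by 2.14 and 2.05 in UCSD-AML1 and 0.89 and 1.19 in ELF-153. The second TRAIL decoy, TNFRSF10D, also rose in all 4, by between 0.67 and 0.83. TGFA, a growth factor, had at most 1 read in UCSD-AML1 libraries and rose in ELF-153, by 2.32 at 96 h and by 34.5-fold (95% counting interval 9.78 to 146) in reads at 144 h. E2F7, a repressor of cell cycle genes, fell in all 4, with changes from -2.35 to -0.99.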

How the data were processed

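RNA was sequenced from 24 strand-specific libraries, per the labels' protocols, in 8 groups of 3. FastQC, TopHat2, STAR, HTSeq, DESeq2 and the human build hg19 are named, without versions or order, per the submitters' processing notes; the sources used here do not say whether counting used strand. The 2 tables used, 1 per harvest, were deposited by the authors as a signal per transcript that is a whole number of reads divided by 1 size factor per library: dividing by the step of each library gave whole reads, within 0.01, for 100% of values. Another deposited table, of repeat families at 96 h, was not used here.

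Transcript identifiers (204940) were matched to GENCODE 29 (GRCh38), of which 181859 matched, with 97.8% of the value, and summed to 52994 genes. No coordinate of the authors' build was used. Libraries held 13148881 to 28528757 reads, and replicate libraries differed by more than sampling noise (chi-square per degree of freedom 3.60 to 213 over 24 pairs), so none was counted as a duplicate. Genes with 10 or more scaled reads in at least 3 of 12 libraries were kept (17609 at 96 h and 17180 at 144 h). Since the deposited values are not counts, log2(scaled reads + 1) was fitted with limma 3.58.1 in R 4.3.3, with a mean per group over the 12 libraries of a harvest, trended and robust variances and Benjamini-Hochberg adjustment over all genes. A gene was called at an adjusted p below 0.05. The line difference is the interaction of line and DAC. Harvests were not tested against each other, because their tables were scaled separately.

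On the recovered reads, edgeR 4.0.16 (quasi-likelihood, TMM) and DESeq2 1.42.0 were run as alternatives. edgeR called 6989 genes after DAC in UCSD-AML1 and 5953 in ELF-153 at 96 h, and 7844 and 6622 at 144 h, against 7058, 5913, 8059 and 6691 by limma in that order. The other alternatives were TMM scaling in limma, pseudocounts of 0.5 and 8, no filter, a fold of at least 1.5, the mitochondrial ribosomal RNA share as a covariate, a fit of only the 6 libraries compared, a replicate block, sums without retained-intron and processed transcripts, and leaving out each library. The limma fit was tested on simulated data. Replicate numbers come from the labels. Deviations from group means correlated above 0.1 for each pair of same-numbered libraries only in UCSD-AML1 at 144 h (0.13, 0.12 and 0.26); elsewhere same-numbered pairs ran from -0.32 to 0.33. A gene with at most 3 reads in a group has a bound, taken against 3 reads over the group, or a ratio of reads with an exact 95% counting interval, in place of a fold.

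The members, role groups and further lists were chosen with earlier results of these data known. Values in every library are given for MDM2, for members called in all 4 comparisons with DAC, for members called in opposite directions in the lines, for the 4 smallest adjusted p of the line difference and for the 3 largest untreated differences at each harvest. From each further list the 3 genes with the smallest adjusted p in each comparison with DAC are named, apart from a result that is not reported here, and the genes of the closing paragraphs were named outside this rule.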

Additional observations from a re-analysis of the deposited data

Results flagged for a closer look

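The change after DAC differed between the lines for the members below, by the interaction term in limma with adjustment over all genes. A positive value, on the log2(scaled reads + 1) scale, means a higher change in ELF-153. At 96 h BTG2, an antiproliferative gene, gave 1.94 (adjusted p = 7.21e-05), with every DAC library above every untreated one in both lines. The death receptor TNFRSF10A gave 1.63 (adjusted p = 1.48e-04), and the oxidoreductase TP53I3 2.15 (adjusted p = 0.00145). PLK2 gave 2.88 (adjusted p = 7.48e-05) and TIGAR 2.59 (adjusted p = 0.00573). The 96 h calls of BTG2, TNFRSF10A, TP53I3, PLK2 and TIGAR held without any 1 library. GADD45A, a stress sensor, was at 0.73 (adjusted p = 0.0286), and RRM2B, of ribonucleotide reductase, at 1.48 (adjusted p = 0.042). Both of these calls, and that of CYFIP2, were lost without certain single libraries, as given above. TP53INP1 and CYFIP2 were negative, at -2.69 (adjusted p = 0.00593) and -1.72 (adjusted p = 0.019).

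The same 9 members differed at 144 h. BTG2 was at 2.43 (adjusted p = 7.42e-06), TNFRSF10A at 1.62 (adjusted p = 4.49e-04) and TP53I3 at 2.13 (adjusted p = 0.00168). GADD45A gave 1.60 (adjusted p = 0.0157), PLK2 1.99 (adjusted p = 0.0312), RRM2B 2.03 (adjusted p = 0.0346) and TIGAR 2.95 (adjusted p = 0.0234). The 144 h calls of PLK2, RRM2B, TIGAR and TP53INP1 were lost without certain single libraries, as given above. CYFIP2 was at -2.84 (adjusted p = 0.00226) and TP53INP1 at -2.02 (adjusted p = 0.0337); TP53INP1 passed the filter only through the DAC-treated UCSD-AML1 libraries, so that its values are a description.

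A further 5 members differed at 144 h. GADD45B, related to GADD45A, gave 1.99 (adjusted p = 0.018), with changes of 0.47 in UCSD-AML1 and 2.46 in ELF-153. The TRAIL receptor TNFRSF10B gave 2.23 (adjusted p = 0.00691), from 0.24 and 2.47. Neither call was lost without any 1 library, but in edgeR on recovered reads GADD45B was at 1.59 (adjusted p = 0.0542), CCNG1 at 1.75 (adjusted p = 0.064) and ZMAT3 at 1.66 (adjusted p = 0.0592). CCNG1, cyclin G1, gave 1.92 (adjusted p = 0.043), lost without UCSD-AML1 untreated libraries 1 or 2, UCSD-AML1 DAC libraries 1 or 3, ELF-153 untreated libraries 2 or 3 or ELF-153 DAC libraries 2 or 3 (log2 1.48 to 2.06, adjusted p 0.0526 to 0.108). The splicing regulator ZMAT3 gave 2.19 (adjusted p = 0.0299), lost without UCSD-AML1 untreated libraries 1 or 2, UCSD-AML1 DAC library 3, ELF-153 untreated libraries 2 or 3 or ELF-153 DAC library 2 (log2 1.72 to 2.11, adjusted p 0.0659 to 0.0761). TP53I11 gave -1.07 (adjusted p = 0.0235), lost without UCSD-AML1 untreated library 1, ELF-153 untreated library 2 or ELF-153 DAC library 2 (log2 -1.04 to -0.84, adjusted p 0.0543 to 0.0665). At 96 h these 5 were not called for the line difference by limma without a covariate. With the mitochondrial share as a covariate, GADD45B and ZMAT3 gained a call there. Harvests were not compared.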

How the results depend on the processing

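Of the 232 comparisons of single members, edgeR on recovered reads left the call as it was in 217, DESeq2 220, TMM scaling 220, and the mitochondrial covariate 172. With that covariate the called members numbered 9 instead of 15 in UCSD-AML1 at 96 h, 17 instead of 11 at 144 h, 10 instead of 20 between untreated lines at 96 h, and 6 instead of 14 for the line difference at 144 h. ZMAT3 in UCSD-AML1 at 96 h turned to -0.14, and the untreated difference of MDM2 at 96 h to 0.31. Only the 6 libraries compared gave 9 instead of 14 in ELF-153 at 96 h, with fewer members past the filter. Without retained-intron and processed transcripts there were 12 instead of 19 in ELF-153 and 9 instead of 14 line differences at 144 h, with 24 members tested, and the untreated difference of AEN at 96 h was 0.32. A pseudocount of 8 turned GDF15 in the 144 h line difference to -1.07. Beyond the smaller number of members tested, the cause was not tested.

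Leaving out 1 library gave 8 to 11 called members at 96 h and 7 to 12 at 144 h for DAC in UCSD-AML1, and for ELF-153 11 to 15 and 14 to 18. TP53INP1 and EDA2R were not tested when a UCSD-AML1 DAC library was left out. The untreated lines gave 20 to 21 and 17 to 20, and the line difference 5 to 10 and 7 to 15, at 96 h and 144 h. The replicate block gave 15, 14, 12 and 18 after DAC (UCSD-AML1 and ELF-153 at 96 h, then at 144 h), 20 and 20 between untreated lines, and 11 and 13 line differences. Under this block PHLDA3 in UCSD-AML1 at 144 h was gained, and no other call of that comparison changed. The blocked libraries share only a number. In none of the 4 pairs of groups, UCSD-AML1 at 144 h included, did every library correlate best with that of its own number. Leaving out both UCSD-AML1 libraries numbered 3 at 144 h, chosen after seeing the data, gave 8 called instead of 11, since TP53INP1 and EDA2R no longer passed the filter (27 members tested) and PLK2 lost its call. Genes near 0 reads, such as PLK2 and GDF15 in untreated ELF-153, are limited by depth to bounds or wide counting intervals.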

Other observations

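Among the further reported p53 targets, some not yet described were chosen after their values were seen. GADD45G, the third member of the GADD45 family of stress sensors, rose in all 4 comparisons. It had 6.29, 0 and 1.58 scaled reads in untreated and 11.8, 29.2 and 18.5 in DAC-treated UCSD-AML1 at 96 h. Untreated ELF-153 had 1.12, 0 and 3.65, and DAC-treated ELF-153 12.3, 11.3 and 9.78. The groups did not overlap in either line, and limma gave 2.88 ± 0.69 (adjusted p = 0.00474) and 2.50 ± 0.69 (adjusted p = 0.0132). At 144 h it rose by 2.27 ± 0.47 (adjusted p = 0.00188) in UCSD-AML1, and in ELF-153 it was higher by 16.9-fold (95% counting interval 4.15 to 139.6) over 2 untreated reads. NINJ1, which ruptures the plasma membrane of dying cells, rose in UCSD-AML1 by 1.31 ± 0.31 (adjusted p = 0.00466) and 1.48 ± 0.23 (adjusted p = 2.59e-04) at 96 h and 144 h, and in ELF-153 at 144 h by 0.81 ± 0.23 (adjusted p = 0.0152).

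SESN2, a sestrin like SESN1, differed in its change between the lines at 96 h, at -1.18 ± 0.30 (adjusted p = 0.0115). It had 967, 805 and 767 in untreated and 1502, 1815 and 1256 in DAC-treated UCSD-AML1. In ELF-153 the untreated values were 1137, 779.5 and 796 and the DAC values 817, 558 and 757. PIDD1, which activates caspase-2, differed in the same direction, at -1.62 ± 0.39 (adjusted p = 0.01). At 144 h neither difference passed the test, at 0.07 (adjusted p = 0.881) and -0.30 (adjusted p = 0.731) by limma. TP73, of the p53 family, did not pass the filter. It had 14.7, 5.50 and 14.2 in untreated UCSD-AML1 at 96 h and no read in untreated ELF-153, where it was at least 11.25-fold lower. At 144 h it had 8.84, 5.75 and 9.54 in untreated UCSD-AML1 and was at least 8.105-fold lower in untreated ELF-153.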
